A study of Mus musculus with 2 samples.

Results

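The 9 genes described here belong to eicosanoid signalling in mouse: the prostacyclin receptor gene Ptgir, the prostaglandin E2 receptor gene Ptger4, the cyclooxygenase genes Ptgs1 and Ptgs2, the thromboxane synthase gene Tbxas1, and the 5-lipoxygenase genes Alox5, Alox5ap, Lta4h and Ltc4s. They were found by gene name among the non-control probes of both arrays, which gave 16 of 41174 probes. The genes were selected on their pathway and on log2 ratios of these arrays that were already known, so their own values are given as a description, with no p. The cells were of the line G1E-ER-GATA-1, a GATA-1-null erythroid line. GATA-1 is a transcription factor that red cell maturation needs, and these cells have it back as a fusion with an oestrogen receptor domain. The control group received control siRNA and the other group siRNA for ETO2, the corepressor made from Cbfa2t3. Both were then kept in β-estradiol for 24 h, which activates the fusion protein. Each of 2 two-colour arrays carried both RNAs, the control in Cy5 and the ETO2 siRNA RNA in Cy3, without a dye swap. The series asked which transcripts depend on ETO2 during GATA-1-driven maturation. The labels give the strain as GATA-1-null and the tissue as erythroid but call the cells murine ES cells. Of 10 embryonic stem cell markers, Pou5f1, Nanog, Zfp42, Sox2 and Lin28a were not well above background and Sall4, Dppa5a, Utf1, Tdgf1 and Esrrb were, as were all 12 erythroid markers.

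Eicosanoids are lipid mediators made from arachidonic acid that phospholipases free from membranes. Cyclooxygenases turn it into a prostaglandin precursor from which separate synthases make prostacyclin, thromboxane and the other prostanoids. The lipoxygenase branch needs 5-lipoxygenase and its activating protein, which give leukotriene A4 for conversion to leukotriene B4 or C4. The prostacyclin receptor and the prostaglandin E2 receptor EP4 couple to the stimulatory G protein and raise cyclic AMP. Blood cells, myeloid cells above all, are a main source of leukotrienes and thromboxane.

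Of the 9 genes, 6 had at least 1 probe well above background on both arrays, by the flag of the scanner software, and no spot of any of the genes was saturated. These were Ptgir, Ptger4, Tbxas1, Alox5, Alox5ap and Lta4h, with 10 such probes. The probes of Ptgs1, Ptgs2 and Ltc4s were not well above background, nor was 1 further probe each of Ptger4 and Tbxas1. The Alox5ap probe and 1 Ptgir probe were lower by over 2-fold on both arrays, while the second Ptgir probe lay near 0 on the log2 scale. Ptger4 was lower by less, Tbxas1 was higher, and Alox5 and Lta4h also lay near 0. All log2 ratios are ETO2 siRNA over control siRNA after loess normalization. The plot of spot signals shows each of the 16 probes in both channels.

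**Figure D1:**
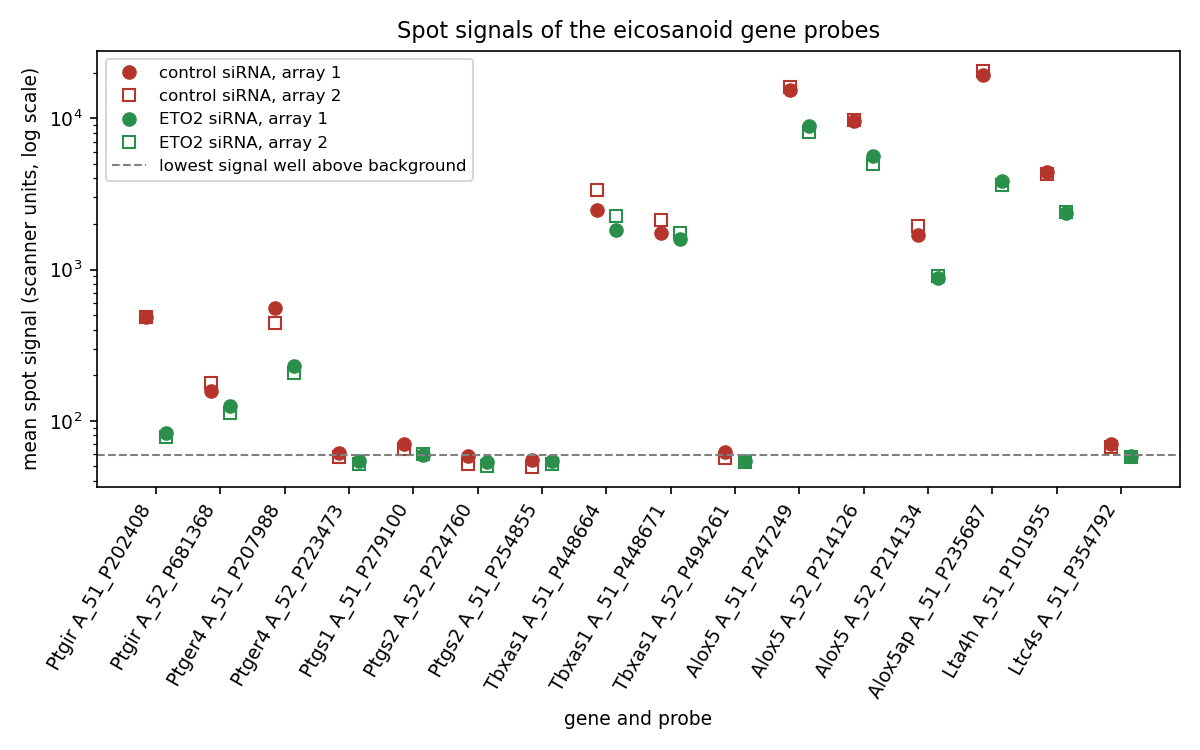
Mean spot signal in scanner units (log axis) of the 16 probes, in the control siRNA channel (red) and the ETO2 siRNA channel (green), on array 1 (filled circles) and array 2 (open squares); the dashed line is the lowest signal that was well above background in either channel. The first Ptgir probe lies at 488 and 485 in the control channel and at 83.0 and 78.5 in the ETO2 siRNA channel, and the probes of Ptgs1, Ptgs2 and Ltc4s lie near the dashed line in both channels without passing the flag.

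The array carried a pair of probes for Ptgir, and their sequences are shown because their ratios differed. The first 30 of the 60 bases of each are printed, as the array files give them. The probes share no run longer than 5 bases, and their GC content over 60 bases was 41.7% and 51.7%. The probe for Alox5ap, the other gene with a large difference, is shown after them.
Ptgir A_51_P202408: ccaaatgacaacaacagataaaaccacaaa
Ptgir A_52_P681368: tgttggtgacctccatcttcttctgcaacg
Alox5ap A_51_P235687: agagacgcatcataacgcaatgccgcgaag
The array files assign the first Ptgir probe to the RefSeq transcript NM_008967 and the second to the cDNA BC094386. Both carry the gene name Ptgir, and where each lies within the transcript was not analysed here.

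Ptgir encodes the receptor for prostacyclin. Probe A_51_P202408 had spot signals of 83.0 and 78.5 in the ETO2 siRNA channel and of 488 and 485 in the control channel on arrays 1 and 2. Local background was 42 and 44.5 in the first channel and 48 and 47.5 in the second. Each of the 4 spots was well above background. The channels did not overlap, but the red channel had the higher median signal over all spots, 105 and 105 against 82.8 and 77.5, so that the channels compare only after normalization. The log2 ratio was -1.88 on array 1 and -1.87 on array 2, with a mean of -1.87 ± 0.0096 (SD, n = 2 arrays). This is 3.67-fold lower after ETO2 siRNA and was the lowest of all 16581 tested genes, a rank that was known when the gene was chosen. An offset of 50 was added to each signal after background correction, which pulls the ratio of a dim spot towards 0. Without the offset the mean log2 ratio of this probe was -2.70, a 6.51-fold difference, and with the deposited processed signals it was -2.71, or 6.56-fold. The deposited errors of the log ratio, turned to log2, were 0.327 and 0.329 for this probe on the arrays, far above the difference between the arrays.

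The second Ptgir probe, A_52_P681368, did not show this difference. Its spot signals were 125 and 113 in the ETO2 siRNA channel and 158 and 179 in the control channel, over backgrounds of 46 and 40 in the first and 47 and 46 in the second. It too was well above background in both channels of both arrays. Its log2 ratio was 0.11 on array 1 and -0.0029 on array 2, with a mean of 0.06 ± 0.08 (SD, n = 2 arrays). The ratio lay close to 0 while the other probe of the gene was the lowest of the 24430 probes kept.

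The means of the Ptgir probes were 1.93 apart on the log2 scale. Among the 5378 genes with more than 1 probe kept, the median distance between the highest and the lowest probe was 0.221, and the 95th percentile was 0.620. A distance of 1 or more occurred in 17 genes, or 0.316%, and that of Ptgir was the largest. Ptgir was chosen with the very low ratio of its first probe known. A wide distance to a probe near 0 follows from that ratio, so nothing is read from this rank. Alox5 with 0.285 and Tbxas1 with 0.259 lay close to the median. Where the mean of both probes stands for Ptgir, its log2 ratio is -0.91. The plot of distances between probes sets Ptgir beside all these genes. Which of its probes follows the receptor transcript was not tested.

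**Figure D2:**
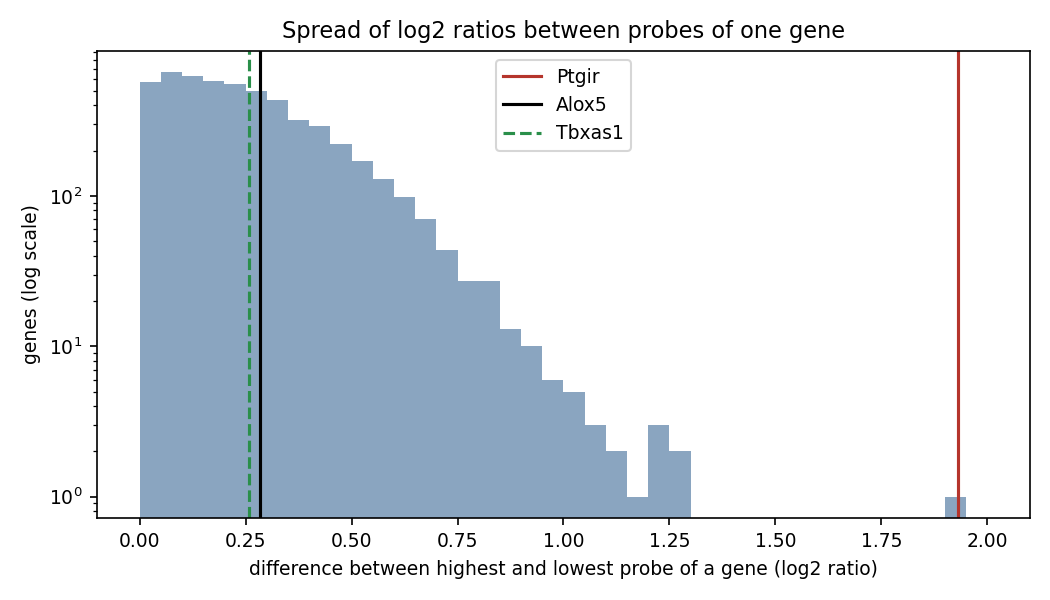
Number of genes (log axis) by the difference in mean log2 ratio between the highest and the lowest probe of a gene, over the 5378 genes with more than 1 probe well above background. Vertical lines mark Tbxas1 (dashed, 0.259), Alox5 (0.285) and Ptgir (1.93). The value of Ptgir is the largest, but the gene was chosen with the low ratio of its first probe known.

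The processing moved the size of the Ptgir difference but kept the probes apart. Over median centring, processed signals, the deposited log ratio, no offset and no background subtraction, the mean log2 ratio of the first probe ran from -2.71 to -1.99. That of the second probe was -0.12 with median centring and -0.06 with processed signals, and it was 0.11 without the offset and 0.03 without background subtraction. The plot of processing settings shows both probes on each array.

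**Figure D3:**
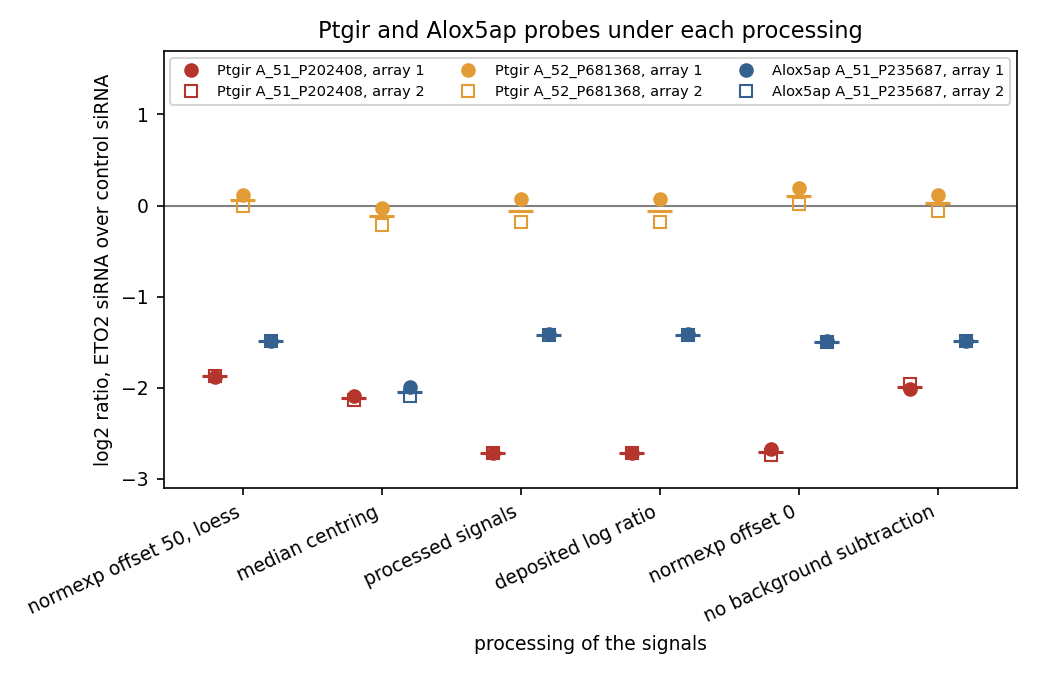
Log2 ratio, ETO2 siRNA over control siRNA, of both Ptgir probes and the Alox5ap probe under 6 ways of processing the same spots; filled circles are array 1, open squares array 2 and short lines the means. The means stay between -2.71 and -1.87 for the first Ptgir probe, between -2.04 and -1.42 for the Alox5ap probe and between -0.12 and 0.11 for the second Ptgir probe.

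The 4 genes with log2 ratios nearest to the first Ptgir probe on the 2 arrays, by Euclidean distance, were Socs1, Hmga1, Plekhg3 and Pirb. Socs1, a feedback inhibitor of cytokine signalling, had a mean log2 ratio of -1.86 ± 0.16 and a distance of 0.166. Hmga1, a high mobility group chromatin protein, had -1.78 ± 0.14 and a distance of 0.202. Plekhg3 had -1.68 ± 0.10 and a distance of 0.298. Pirb, a paired immunoglobulin-like receptor of leukocytes, had -1.54 ± 0.06 and a distance of 0.469. With 2 values per gene, likeness here means only a similar fall. In the RefSeq gene order of assembly GRCm38.p6, Gng8 lies before Ptgir and Calm3 after it. Their log2 ratios were -0.04 ± 0.05 (limma, adjusted p = 0.638) and -0.15 ± 0.12 (limma, adjusted p = 0.0759), so neither neighbour passed the test.

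Ptger4 encodes EP4, a receptor for prostaglandin E2. Probe A_51_P207988 had signals of 230 and 208 in the ETO2 siRNA channel against 560 and 443 in the control channel. After normalization the arrays differed in size, with log2 ratios of -0.63 and -0.33. The mean was -0.48 ± 0.21 (SD, n = 2 arrays), equal to 71.8% of control. The second probe, A_52_P223473, had signals of 54.2 and 52.1 against 60.8 and 57.4 and was not well above background, so that it gives no ratio. Both receptors thus had a second probe that did not repeat the first, in Ptgir by its ratio and in Ptger4 for want of signal.

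Ptgs1 and Ptgs2 encode the cyclooxygenases, the entry to all prostanoids. The Ptgs1 probe had signals of 59.7 and 60.1 after ETO2 siRNA and of 70.7 and 64.9 in the control. The lowest signal well above background was 61.7 and 59.2 in the ETO2 siRNA channel and 66.0 and 67.3 in the control channel, so that Ptgs1 lay at this limit without passing the flag. One Ptgs2 probe was spotted 10 times on each array. Its spots ran from 51.4 to 59.4 in the ETO2 siRNA channel and from 52.1 to 59.9 in the control channel of array 1. On array 2 they ran from 47.6 to 55.7 and from 47.9 to 51.7. Both ranges overlapped within each array, and no Ptgs2 transcript was detectable above background in either group.

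Tbxas1 encodes thromboxane A synthase. Probe A_51_P448664 had signals of 1826 and 2266 after ETO2 siRNA and of 2462 and 3351 in the control. Probe A_51_P448671 had 1590 and 1744 after ETO2 siRNA and 1741 and 2137 in the control. In both probes the uncorrected green signal was below the red one, and the ratio turned positive only once each array was normalized for the brighter red channel. After loess the first probe had log2 ratios of 0.35 and 0.37, with a mean of 0.36 ± 0.014, or 1.28-fold higher. The second had 0.62 and 0.61, with a mean of 0.62 ± 0.013, or 1.53-fold higher. With median centring, which put the median of all genes at -0.31, these means were -0.12 and 0.16, and relative to that median they were 0.19 and 0.47. Both probes therefore lay above the median gene under either scaling, while the sign of the first against 0 flipped. The remaining probe, A_52_P494261, was not well above background.

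Alox5ap encodes the activating protein that presents arachidonic acid to 5-lipoxygenase. Its probe had signals of 3824 and 3629 after ETO2 siRNA against 19304 and 20676 in the control. The channels lay far apart on both arrays, and none of the spots was saturated. The log2 ratio was -1.49 on each array, with a mean of -1.49 ± 0.00061 (SD, n = 2 arrays), or 2.80-fold lower, at 35.7% of control. Alox5ap ranked the 6th lowest of all tested genes. Its log2 ratio was -1.42 with processed signals, -1.50 without the offset and -2.04 with median centring, and relative to the median gene it was -1.73 under that last setting. Unlike Ptgir, it had a single probe, so the array holds no second reading of this gene.

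Alox5 encodes 5-lipoxygenase itself, the enzyme that Alox5ap serves. Its 3 probes did not show the fall of Alox5ap. Probe A_51_P247249 had signals of 8947 and 8073 after ETO2 siRNA and of 15313 and 16067 in the control, and a normalized log2 ratio of 0.07 ± 0.03. Probe A_52_P214126 had 5651 and 4956 against 9649 and 9803, and a log2 ratio of 0.05 ± 0.03. Probe A_52_P214134 had 873 and 902 against 1699 and 1934, and a log2 ratio of -0.22 ± 0.0018. The first of these and the next are not independent readings, since the end of one is the start of the other. The shared 20 bases are in capitals.
Alox5 A_52_P214126, last 30 bases: ctttattctaTTTATGCTTCCTCCAATTGC
Alox5 A_51_P247249, first 30 bases: TTTATGCTTCCTCCAATTGCttgcatagag
With median centring the 3 probes had log2 ratios of -0.51, -0.50 and -0.65, and relative to the median gene -0.20, -0.19 and -0.34, so that the sign of the overlapping probes depends on the scaling. Under the same centring Alox5ap stood at -2.04.

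Lta4h encodes the hydrolase that makes leukotriene B4 from leukotriene A4. It had signals of 2359 and 2385 after ETO2 siRNA and of 4428 and 4266 in the control. Its log2 ratios were -0.11 and 0.11, with opposite signs on the arrays, and the mean was -0.0025 ± 0.15. With median centring they were -0.57 and -0.42, with a mean of -0.49, or -0.19 relative to the median gene. Ltc4s encodes the synthase that makes leukotriene C4 from the same precursor, and its probe had signals of 58.2 and 57.3 against 70.0 and 67.1. It was not well above background. Within the 5-lipoxygenase branch, the large difference was thus seen in Alox5ap and not in the probes of Alox5 or Lta4h. The plot of log2 ratios sets all 16 probes side by side.

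**Figure D4:**
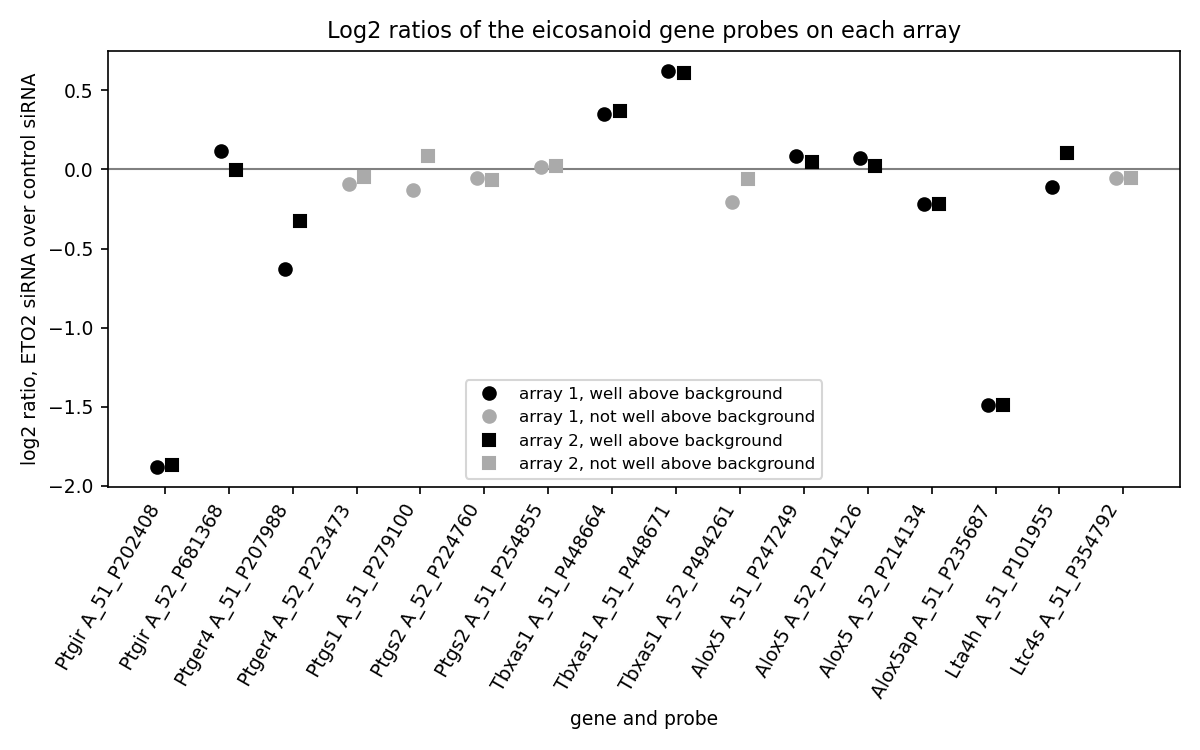
Log2 ratio, ETO2 siRNA over control siRNA, of the 16 probes on array 1 (circles) and array 2 (squares); black symbols are probes well above background and grey symbols are probes that were not, whose ratios are not interpreted. The first Ptgir probe and the Alox5ap probe lie below -1.4 on both arrays, and the black symbols of Tbxas1 lie above 0.3.

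In the fit over all genes, 3694 of 16581 genes (22.3%) were called lower and 3050 (18.4%) higher after ETO2 siRNA by limma at an adjusted p under 0.05, or 40.7% in either direction. Of the 6 eicosanoid genes with a measured probe, Alox5ap, Ptger4 and, by its first probe, Ptgir were among the lower calls. Tbxas1 was among the higher calls, and Alox5 and Lta4h were not called. As these ratios were known when the genes were picked, nothing is read from that count. A log2 ratio of at least 2-fold lower on both arrays was found for 38 genes (0.229%), Alox5ap and, by its first probe, Ptgir among them. Cbfa2t3, the siRNA target, had a log2 ratio of -0.42 ± 0.05 (limma, adjusted p = 9.23e-05), at 74.6% of control, and its second probe -0.23. With median centring it had -0.98, or -0.67 relative to the median gene, and as the mean over probes -0.32. The labels do not say whether the arrays came from separate cultures, so that p-values may measure technical spread only. In RNA from whole cultures, fewer cells of a type and less RNA per cell cannot be told apart.

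Markers of other blood cells were read on the same arrays, and the sums below are of deposited processed signals over the markers above background, without saturated probes. Of 7 eosinophil markers, 5 were well above background and 4 of these fell, against 22.3% lower calls over all genes. These were the granule protein genes Prg3 by 1.06 and Prg2 by 0.61, Siglecf by 0.72 and Il5ra by 0.25 on the log2 scale, and the call of Il5ra was lost with processed signals and without the offset. Epx and Ear1 were not above background. The sums were 1009 and 1306 after ETO2 siRNA and 1617 and 1743 in the control. Of 11 mast cell and basophil markers, 7 were above background. Hdc, which makes histamine, fell by 1.38, while Mcpt1, Mcpt4 and Il1rl1 rose, Il1rl1 without a call under median centring. Fcer1a, Cma1 and Cpa3 were not called under loess with the offset. Cpa3, at -0.16, was well above background in the control channel only. With processed signals and without the offset Cpa3 was called lower. Ms4a2, Tpsab1, Tpsb2 and Mcpt8 were not above background, and the sums were 1073 and 1248 against 1326 and 1417. These lower sums rest on Hdc, which had 159 and 184 against 643 and 624. The processed signals of Mcpt1, Mcpt4, Il1rl1 and Cma1 were higher after ETO2 siRNA on both arrays, those of Il1rl1 being 462 and 566 against 350 and 437. Cpa3 was lower on both arrays, and Fcer1a differed in direction between them. Of 10 neutrophil markers, 5 were above background with sums of 312 and 340 against 314 and 371. Under loess with the offset, Prtn3 alone of these was called, lower by limma. With median centring, processed signals, the deposited log ratio or no offset, Csf3r and Ltf were called higher and Prtn3 stayed lower. Elane, Camp, Ngp, S100a8 and S100a9 were not above background. Of 10 macrophage markers, 5 were above background with sums of 504 and 595 against 582 and 656. None of those 5 was called under loess, and Adgre1, Lyz2, Itgam, Ctss and Fcgr1 were not above background. With median centring Cd68 and Marco were called lower, as were 10807 of all 16581 genes. Of 10 megakaryocyte and platelet markers, 8 were above background, with sums of 26441 and 32103 against 18931 and 23577. Under loess Gp9 rose by 1.19, Gp6 by 0.68 and Pf4 by 0.36, while Gp1ba fell by 0.36. With median centring Pf4 and Gp1bb were also called lower, as were most of all genes, while Gp9 and Gp6 stayed higher. With processed signals and without the offset Itga2b was also called higher. Ppbp was not above background, and Tubb1 had no probe on the array. The part of any such cells in the values of Ptgir, Alox5ap or Tbxas1 was not tested. All 12 erythroid markers rose under loess with the offset, against 18.4% higher calls over all genes. With median centring 8 rose and 3 fell against 0, where 464 of all 16581 genes were called higher and 10807 lower. With processed signals 9 were called higher, and without the offset 11, with no lower call in either. Over all genes these settings gave 1192 and 2693 higher calls. The erythroid sums were 266693 and 304034 against 152443 and 160956 over 10 markers, the globins Hba-a1 and Hbb-bt being saturated. Without Slc4a1 they were 174765 and 203559 against 140601 and 148973.

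Other genes of the eicosanoid pathway were taken from a list of 51 in 7 roles, which leaves out the 9 genes above. Of 29 measured, 5 rose, 8 fell and 16 did not pass the test, that is 17.2% higher and 27.6% lower against 18.4% and 22.3% of all genes. Their median log2 ratio was -0.07 and that of all genes -0.018. These shares lie near the background. With median centring the split was 2 higher and 18 lower, against 464 and 10807 over all genes. With the processed signals it was 4 higher and 1 lower, against 1192 and 1267 over all genes.

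In the release of arachidonic acid, Plaa, a phospholipase A2 activating protein, rose by 0.48 ± 0.16 on the log2 scale (limma, adjusted p = 7.44e-05). A second Plaa probe had 0.28. The phospholipase Pla2g4b rose by 0.45 ± 0.0074 (limma, adjusted p = 4.87e-05), but its other probes had -0.0096 and 0.30. Pla2g15 fell by 0.35 ± 0.12 (limma, adjusted p = 0.000654) and Pla2g6 by 0.17 ± 0.018 (limma, adjusted p = 0.0435). Pla2g12a with 0.05 and Pla2g4c with 0.10 did not pass, and a second Pla2g12a probe had -0.29. Pla2g4a, the cytosolic phospholipase A2 best known for feeding both branches, was not well above background. With median centring Plaa and Pla2g4b were no longer called, at 0.04 and 0.12, and with processed signals Pla2g15 and Pla2g6 were not called.

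Among the prostanoid synthases, Cbr1, a carbonyl reductase that also acts on prostaglandin E2, fell by 0.24 ± 0.06 (limma, adjusted p = 0.0076). Ptges3 had -0.10 and Akr1b3 -0.12, and neither passed. A second probe of Ptges3 had -0.20 and that of Akr1b3 0.13. The probes of Ptgis, the prostacyclin synthase whose product Ptgir binds, were not well above background, nor were those of Ptges and Hpgds. Among the other prostanoid receptors, the thromboxane receptor gene Tbxa2r fell by 0.29 ± 0.10 (limma, adjusted p = 0.00244), and Ptgdr2 with -0.02 did not pass. Ptger2, Ptger3, Ptgfr and Ptgdr were not well above background, and no probe carried the name Ptger1. With processed signals Cbr1 and Tbxa2r were not called, with adjusted p-values of 0.287 and 0.155 in limma.

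In the leukotriene branch, Mgst3 and Mgst2, microsomal glutathione S-transferases related to Ltc4s, rose by 0.47 ± 0.0078 (limma, adjusted p = 3.09e-05) and 0.17 ± 0.04 (limma, adjusted p = 0.0443). A second Mgst3 probe had 0.60, and the call of Mgst2 was lost with processed signals and without background subtraction (limma, adjusted p = 0.0768 and 0.0672). Dpep1 with -0.03 did not pass, nor did Gpx4, which was saturated in 1 channel. The leukotriene B4 receptor gene Ltb4r1 rose by 0.42 ± 0.10 (limma, adjusted p = 0.000143), and Cysltr2 with -0.07 did not pass. Of the other lipoxygenases, Alox12b with -0.10 and Alox12e with 0.0042 did not pass. With median centring Mgst3 stood at -0.04 and Ltb4r1 at 0.15, neither called, though both stayed above the median gene, by 0.27 and 0.46.

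In transport and breakdown, 4 of 7 measured genes fell, against 22.3% of all genes, and none was called higher. Abcc4, an exporter of prostaglandins and cyclic nucleotides, fell by 0.60 ± 0.03 (limma, adjusted p = 3.55e-06), but its second probe had -0.04 ± 0.11. Slco2a1, the prostaglandin uptake transporter, fell by 0.26 ± 0.13 (limma, adjusted p = 0.00631). The prostaglandin reductase gene Ptgr2 fell by 0.18 ± 0.15 (limma, adjusted p = 0.0479), and Cyp4f18, which hydroxylates leukotriene B4, by 0.17 ± 0.09 (limma, adjusted p = 0.0491). Ephx2 with -0.11 and Abcc1 with -0.15 did not pass, and the other probes of Abcc1 had -0.43 and -0.53. With processed signals Abcc4 alone of these 4 was called, and Ptgr2 stood at 0.00097. Ptgr2 and Cyp4f18 also lost the call without the offset.

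The cyclic AMP pathway lies downstream of Ptgir and Ptger4, and 31 of 39 listed genes were measured. Of these, 6 rose, 6 fell and 19 did not pass, 19.4% in each direction against 18.4% higher and 22.3% lower over all genes, with a median log2 ratio of -0.04. With median centring 0 rose and 20 fell by limma, against 464 and 10807 over all genes, whereas all 6 genes that rose under loess stayed above the median gene. Atf1, a transcription factor of the CREB family, fell by 0.89 ± 0.13 (limma, adjusted p = 1.17e-07), and its other probes had -0.50 and -0.22. Crtc2, a CREB coactivator, fell by 0.30 ± 0.07 (limma, adjusted p = 0.00146), but with processed signals it stood at -0.036 (limma, adjusted p = 0.785). Crem, also of the CREB family, rose by 0.25 ± 0.11 (limma, adjusted p = 0.0071), with ratios above 0 in all 6 of its probes under loess. It stood at -0.11 with median centring.

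Upstream in the same pathway, Adcy7, an adenylyl cyclase, fell by 0.53 ± 0.09 (limma, adjusted p = 1.49e-05), and its second probe had -0.12. Gnas, the stimulatory G protein subunit that the receptors couple to, rose by 0.34 ± 0.12 in the probe used (limma, adjusted p = 0.000868). Its 7 probes ran from -0.21 to 0.34, and Gnas was not called where they were averaged or with processed signals. The phosphodiesterase gene Pde4d fell by 0.59 ± 0.05 (limma, adjusted p = 4.41e-06). Of its other probes, one had -0.22 and the other -0.06. The arrestins, which end receptor signalling, went in opposite directions under loess, Arrb1 up by 0.41 ± 0.10 (limma, adjusted p = 0.000161) and Arrb2 down by 0.49 ± 0.12 (limma, adjusted p = 4.42e-05). With median centring Arrb1 stood at -0.24 and Arrb2 at -1.01.

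Of the protein kinase A genes, Prkar2b, a regulatory subunit, was called higher (limma, adjusted p = 7.13e-07), but 1 of its channels was saturated on both arrays and no fold is given. The anchoring protein gene Akap13 rose by 0.19 ± 0.017 (limma, adjusted p = 0.0258) and Akap8 fell by 0.39 ± 0.07 (limma, adjusted p = 0.000199). The receptor kinase gene Grk3 rose by 0.20 ± 0.05 (limma, adjusted p = 0.0177). Second or further probes of Akap13 ran from -0.18 to 0.16, that of Akap8 had -0.02 and that of Grk3 -0.0099. Akap13 and Grk3 were not called with processed signals or with the mean over probes, nor was Akap8 with processed signals. The plot of pathway genes shows both lists by role.

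**Figure D5:**
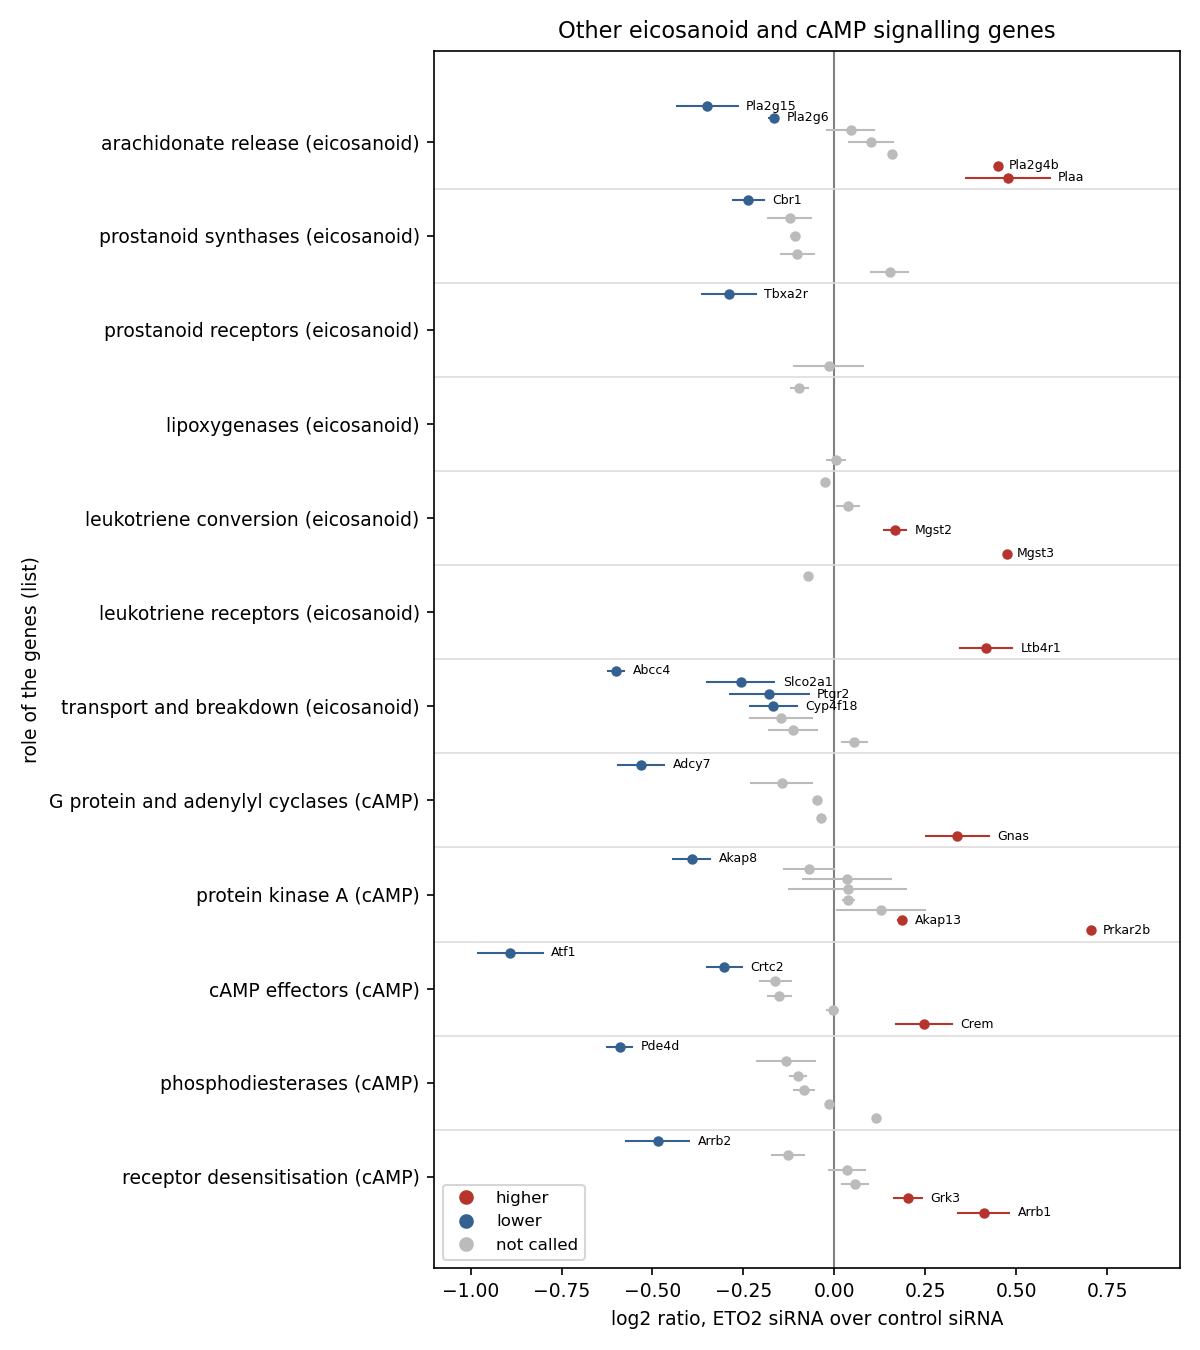
Log2 ratio, ETO2 siRNA over control siRNA, of the 29 other eicosanoid genes and 31 cyclic AMP genes measured, by role; points are means, lines join the values of the 2 arrays, and colours mark limma calls at an adjusted p under 0.05 (red higher, blue lower, grey not called). Red and blue points occur in both lists, from Atf1 at -0.89 to Plaa at 0.48, and Prkar2b, at the right, was saturated in 1 channel. Gpx4 was also saturated in 1 channel. The means of Prkar2b and Gpx4 come from saturated spots. Ptgir and Alox5ap are not plotted and were chosen with their low ratios known, so the plotted genes are not compared with them.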

How the data were processed

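RNA of G1E-ER-GATA-1 cells after ETO2 siRNA or control siRNA was hybridised to 2 two-colour arrays, each dye labelling 1.2 µg, per the labels. Spots were read with Agilent Feature Extraction 9.1.3.1, per the file headers. The deposited mean and background intensity of a spot is linear, before any normalization. A processed intensity and its log10 ratio of red over green were also deposited, made by the same software with background subtraction and dye normalization, per the file headers. The authors' separate log10 ratio table equalled that ratio within 0.001 on 45013 and 45016 of 45018 features, with a median of 0 on each array. Every ratio here is turned to log2 of ETO2 siRNA over control siRNA. No source used here names the genome build of the probes.

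Mean signals were corrected with normexp (offset 50) and normalized by loess within each array in limma 3.58.1 (R 4.3.3). Spots of a probe were averaged. A probe was kept where the same channel, or each channel, was well above background on both arrays (24430 of 41174). A gene was represented by its kept probe with the highest signal. Names were updated with the RefSeq table of GRCm38.p6, through accession for 24375 probes, symbol for 6301 and synonym for 2426. Probe sequences are those of the array files. The 16581 genes were tested against 0 (lmFit, eBayes) in a two-sided test, with p adjusted by Benjamini-Hochberg at a threshold of 0.05. With 1 residual degree of freedom per gene the p-values rest on the shared variance, and a sign permutation of 2 arrays cannot go below 0.5. Without a dye swap, a dye effect of a probe enters its ratio with the same sign on both arrays. Both arrays lay on 1 slide with a single scan, so there was no batch to compare. The steps were tested on simulated data.

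The genes, the lists and the rule for named genes were chosen with earlier results of these data known. The rule names the 9 genes with all their probes, each gene of the lists past the threshold, up to 2 further measured genes of each eicosanoid role with the highest mean signal, Cbfa2t3, and the 4 genes nearest to Ptgir. The arrays give no read depth, and their number limits the precision. Alternatives were median centring, processed signals, the deposited log ratio, an offset of 0, no background subtraction, no filter or a stricter one, leaving out saturated probes, the mean over probes, and each array alone.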

Additional observations from a re-analysis of the deposited data

How the results depend on the processing

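With 2 arrays and no dye swap, dim probes and small ratios are the least certain. The 6744 calls over all genes became 11271 with median centring (464 higher, 10807 lower) and 2459 with processed signals or the deposited log ratio (1192 higher, 1267 lower). The 13 eicosanoid list calls became 20 (2 higher, 18 lower) and 5 (4 higher, 1 lower), and without the offset 5 were lower. The 12 cAMP list calls became 20 (0 higher, 20 lower) with median centring and 7 (3 higher, 4 lower) with processed signals or the deposited ratio. With the mean over probes 3 were higher. The first Ptgir probe had -2.11 with median centring, -2.71 with processed signals and the deposited ratio, -2.70 without the offset and -1.99 without background subtraction. The second Ptgir probe had -0.12 with median centring and -0.059 with processed signals and the deposited ratio. The mean over both Ptgir probes, which is a value of the gene, was -0.91. Alox5ap had -2.04 with median centring, -1.42 with processed signals and the deposited ratio, -1.50 without the offset and -1.49 without background subtraction. Tbxas1 probe A_51_P448664 turned to -0.12 with median centring. The Alox5 probes A_51_P247249 and A_52_P214126 turned to -0.51 and -0.50 with it, and the mean over the 3 Alox5 probes was -0.036. The cause of these shifts was not tested, beyond the offset and the averaging, which act by construction. On single arrays the first Ptgir probe ran from -1.88 to -1.87, the second from -0.0029 to 0.11 and Alox5ap at -1.49, and 2 probes stayed at least 2-fold lower in each. Counts of calls could not be had with 1 array. No further paired analysis was run, because each array holds both groups and the tested ratio within it is already the pair.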
